A study of Homo sapiens with 7 samples.

Results

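Replication origins whose centre lies more than 5 kb and at most 20 kb from the nearest annotated start site were described by the nascent RNA made across them. The authors' deposited list holds 2040 origin centres mapped by OK-seq with the signed distance of each to its nearest start site. Of these, 966 lie in the distance range and have a window in the tables of all 6 libraries, against 4767 origins with a window in all 6 tables. A negative distance, found at 787 of the 966, means that the origin lies before the start site of its nearest gene, and these are called upstream origins. The other 179 have a positive distance and lie past the start site, so they are called downstream origins. The remaining origins of the list with windows in all 6 tables are 391 within 5 kb (311 upstream, 80 downstream) and 675 beyond 20 kb (380 upstream, 295 downstream). The list's name refers to the 5 kb before start sites being empty, but no source used here says what had to be absent.

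The libraries came from RPE1, an immortalised human retinal pigment epithelial cell line, in an inducible-Cas9 subline that lacks both p53 and the puromycin resistance gene (labelled RPE1 iCas9 p53/puro-dKO). The CFAP20-KO group (3 libraries) had CFAP20 knocked out in that background, and the WT group (3 libraries) carried the same background with CFAP20 intact. All cells were otherwise untreated and were given 2 mM bromouridine for 30 min before harvest. The labels do not say whether the CFAP20-KO cells are 1 clone or whether replicates are separate cultures, so each p-value rests on the spread among these 6 libraries alone, and that spread may be technical. The level of CFAP20 itself and the rescue line were not analysed here.

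In human cells, replication does not start at a fixed sequence but in zones, often next to active genes, where the replicative helicase was loaded in G1 and forks then leave in both directions. OK-seq reads the strand of Okazaki fragments, and the point where their strand switches marks the middle of such a zone. Bromouridine is built into RNA as it is made, so BrU-seq shows where RNA polymerases were moving during the pulse, including over introns and past gene ends. Transcription through an origin is of interest because polymerases and forks that use the same stretch of DNA can collide. CFAP20 is best known as a protein of ciliary microtubules, and the study asked about its part in transcription and replication in the nucleus.

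The tables give signal per 200-bp bin out to 100 kb on both sides of the centre, on the strand of the nearest gene and read in the direction of that gene. Signal was averaged from 1.2 to 4.8 kb before the centre, within 1 kb of it (at the centre) and from 1.2 to 4.8 kb after it, and over the whole stretch of 4.8 kb to both sides (around the centre). None of these stretches holds the nearest start site of these 966 origins. The signal at the start site was taken over its first 3 kb. Signal is in the authors' scaled units, for which no reference is stated. Logs are log2(signal + pseudocount), which understates changes of low values. The pseudocount differs between regions, so logs are compared only within a region.

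All values are whole multiples of 1 step per library, to within 3.41e-06 of a step, and this step ran from 0.393 in CFAP20-KO replicate 1 to 0.0733 in WT replicate 2. The windows of the 966 origins held 4856494 to 22791878 steps per library, and 50.6 to 63.8% of their bins were at 0. A step is not a read, because 1 fragment covers neighbouring bins, so no counting interval is given. A number in the column names of another deposited table, here called the run, joins CFAP20-KO replicate 1 to WT replicate 1 and CFAP20-KO replicates 2 and 3 to WT replicate 3. WT replicate 2 shares its run with no CFAP20-KO library. Its meaning is not stated. Libraries also fell apart in a way that crosses the groups: from 60 to 65 kb past the centre of upstream origins the mean log2 signal was -1.52, -0.99 and -0.98 in CFAP20-KO replicates 1, 2 and 3, against -1.54, -0.96 and -1.40 in WT replicates 1, 2 and 3. CFAP20-KO replicates 2 and 3 and WT replicate 2 thus carried more signal far into genes than CFAP20-KO replicate 1 and WT replicates 1 and 3. Of 10 marker genes of retinal pigment epithelium, 2 could be measured in the windows: RLBP1 at 0.0163 to 0.356 and TTR at 0 to 0.0129. Their summed level was 0.0163 to 0.107 in CFAP20-KO and 0.127 to 0.369 in WT libraries. Of 13 markers of other cell types, 5 could be measured, and their summed level was 2.82 to 4.54 in CFAP20-KO and 3.67 to 6.27 in WT libraries, of which SYT1, a synaptic vesicle protein gene, gave the most. The part of these levels in the results was not tested.

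The sequence at an origin centre is shown for 3 of the origins described below, each as 300 bases of hg38 on the strand of the nearest gene, taken from the reference genome. TSKU names an origin that passed the test between groups in 1 region, and ANKAR and GUCD1 are among the origins with the most signal around the centre. Capitals mark runs of at least 4 G or at least 4 C.
TSKU, chr11:76763351-76763650, plus strand: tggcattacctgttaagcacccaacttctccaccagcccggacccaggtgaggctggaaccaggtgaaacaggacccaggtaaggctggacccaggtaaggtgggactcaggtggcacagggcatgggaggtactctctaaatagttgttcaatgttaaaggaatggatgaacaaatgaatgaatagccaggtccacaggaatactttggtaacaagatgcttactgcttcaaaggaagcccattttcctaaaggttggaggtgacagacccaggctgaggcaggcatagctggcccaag
ANKAR, chr2:189669351-189669650, plus strand: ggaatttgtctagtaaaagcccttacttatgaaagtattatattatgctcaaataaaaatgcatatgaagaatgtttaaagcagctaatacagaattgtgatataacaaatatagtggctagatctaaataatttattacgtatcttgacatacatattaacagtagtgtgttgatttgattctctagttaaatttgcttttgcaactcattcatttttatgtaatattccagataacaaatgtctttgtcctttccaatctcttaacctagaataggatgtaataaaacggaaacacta
GUCD1, chr22:24544351-24544650, minus strand: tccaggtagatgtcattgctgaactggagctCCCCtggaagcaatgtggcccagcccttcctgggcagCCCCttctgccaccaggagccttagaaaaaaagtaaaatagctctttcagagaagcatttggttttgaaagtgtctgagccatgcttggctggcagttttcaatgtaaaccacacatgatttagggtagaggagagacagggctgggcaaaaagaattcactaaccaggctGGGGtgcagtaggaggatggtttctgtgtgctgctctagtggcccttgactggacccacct
The TSKU centre lies in an intron of a non-coding gene on the opposite strand (ENSG00000254632). The ANKAR centre lies in an intron of ASNSD1 on the same strand and the GUCD1 centre in an intron of GUCD1 itself.
Runs of 4 G or 4 C (GGGG or CCCC, hence either strand) lay within these 300 bases at 514 of 787 upstream origins (65.3%) and at 125 of 179 downstream origins (69.8%), against 66.0% of all origins of the list. The median GC content of the 300 bases was 43% at upstream and 44% at downstream origins. A match is a description of the letters and not of a site.

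On the strand of the nearest gene, the upstream origins lay in nearly silent DNA that in most cases ended at an active promoter. Signal on the other strand was not read, so silence of both strands is not shown. Whether the selection of the list asked for such silence is not stated. Their nearest gene was protein-coding at 718 of 787 (91.2%), with a median length of 82648 bp, and the median distance of the centre from the start site was -10671 bp. No protein-coding or long non-coding gene overlapped the centre at 594 (75.5%), a gene of the same strand did at 107 (13.6%), a gene of the opposite strand at 79 and genes of both strands at 7. The median signal at the centre was 0 in each of the 6 libraries, and 298 origins (37.9%) were at 0 there in all 6. Before the centre 231 origins and after it 235 origins were at 0 in all 6 libraries. Mean signal over 1 was found at 39 origins before the centre (4.96%), at 35 at the centre (4.45%) and at 29 after it (3.68%). In the first 3 kb of the nearest start site, by contrast, mean signal was over 1 at 651 of 787 (82.7%), and the median was 6.41 ± 0.35 in CFAP20-KO and 6.41 ± 1.21 in WT libraries (SD over libraries, n = 3 each).

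**Figure D1:**
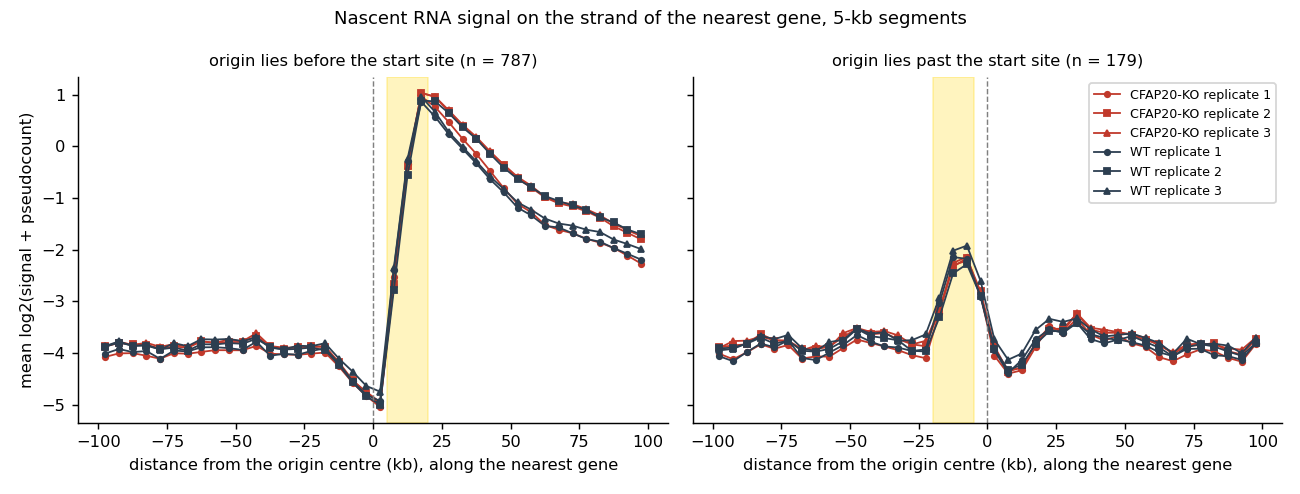
Mean log2(signal + pseudocount) over origins in 5-kb segments (y) against the distance from the origin centre in kb along the nearest gene (x), 1 line per library, CFAP20-KO in red and WT in dark blue, upstream origins on the left and downstream on the right; shading marks where the nearest start sites lie. At upstream origins all 6 libraries had their lowest segment just past the centre, at -5.04 to -4.75, and 60 to 65 kb out CFAP20-KO replicates 2 and 3 and WT replicate 2 ran above the other 3.

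Along the gene direction, signal changed little up to 15 kb before the upstream origins and fell from there to just past the centre. It then stepped up, as the plot by distance from the centre shows. The distance rule puts the nearest start site 5 to 20 kb past the centre and leaves no nearer one on either side. The low stretch and the place of the step thus follow in part from how the origins were chosen. From 25 to 20 kb before the centre the mean log2 signal was -4.01, -3.87 and -3.88 in CFAP20-KO replicates 1, 2 and 3 and -3.96, -3.89 and -3.87 in WT replicates 1, 2 and 3. In the 5 kb just past the centre it was -5.04, -4.98 and -4.95 in CFAP20-KO and -4.93, -4.99 and -4.75 in WT libraries, the lowest 5-kb segment of the window in each library. From 15 to 20 kb past the centre it was 0.96, 1.03 and 1.03 in CFAP20-KO and 0.86, 0.88 and 0.96 in WT libraries. The drop from before to after the centre was small but present in every library: the mean log2 ratio of after to before was -0.27 ± 0.02 in CFAP20-KO and -0.21 ± 0.01 in WT libraries (SD, n = 3 each). Among the 355 origins 5 to 10 kb upstream 37.7% were at 0 at the centre in all 6 libraries, and among the 432 at 10 to 20 kb it was 38.0%. Mean signal at the centre was 0.160 ± 0.012 in CFAP20-KO and 0.181 ± 0.055 in WT libraries at 5 to 10 kb, and 0.223 ± 0.022 in CFAP20-KO and 0.312 ± 0.143 in WT libraries at 10 to 20 kb (SD, n = 3 each). No test was made between these distances.

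**Figure D2:**
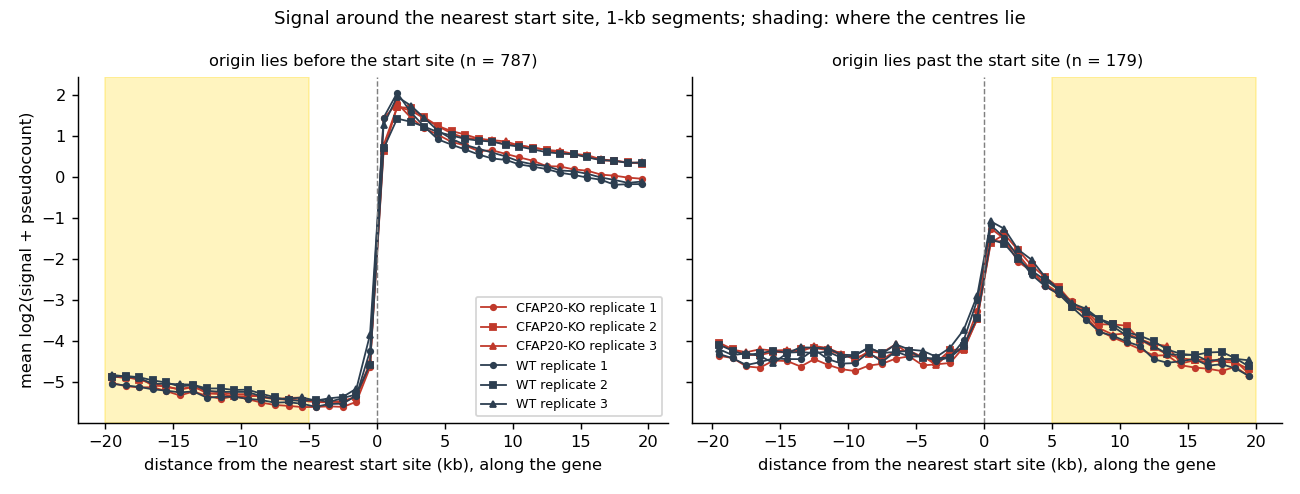
The same origins lined up at the nearest start site: mean log2(signal + pseudocount) in 1-kb segments (y) against the distance from the start site in kb along the gene (x), 1 line per library; shading marks where the origin centres lie. Upstream origins sit on the flat, low side of a step at the start site, and downstream origins on a slope of falling signal past a lower start-site peak.

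The signal of an upstream origin, read on the strand of its nearest gene, differed with what lay on its far side. Where the next protein-coding gene on that side ran on the same strand, so that its end faced the origin (288 origins), the mean log2 signal before the centre was -3.74 ± 0.02 in CFAP20-KO and -3.77 ± 0.08 in WT libraries (SD, n = 3 each). Where it ran on the opposite strand (231 origins), the values were -4.54 ± 0.02 in CFAP20-KO and -4.55 ± 0.11 in WT libraries. With no coding gene within 100 kb (216 origins) they were -4.91 ± 0.11 in CFAP20-KO and -4.79 ± 0.11 in WT libraries. The 22 origins with a coding gene of the same strand over the centre were the highest, at -2.98 ± 0.03 in CFAP20-KO and -3.08 ± 0.25 in WT libraries, and 30 with a coding gene of the opposite strand over it were at -4.82 ± 0.11 in CFAP20-KO and -4.80 ± 0.12 in WT libraries. Apart from imperfect strand marking, a gene on the opposite strand cannot add to signal read on this strand. The order of same-strand above opposite-strand sets is thus in part set by the strand that was read. These sets were compared after their values had been seen and no test was made between them.

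The upstream origins with the most signal around the centre had a transcribed unit of the same strand over or close to the centre in 3 of 5 cases. ZNF543, a zinc finger gene, named the highest: its origin at chr19:57306501 lies in an exon of a non-coding gene of the same strand (ENSG00000268205), 13971 bp before the ZNF543 start. Signal there was 6.60, 5.56 and 5.54 in CFAP20-KO replicates 1, 2 and 3 and 7.71, 12.6 and 9.14 in WT replicates 1, 2 and 3, so that the groups did not overlap. The ANKAR origin, 6484 bp before the start of this ankyrin and armadillo repeat gene and inside ASNSD1, had 4.33, 9.54 and 9.62 in CFAP20-KO and 5.25, 7.27 and 8.66 in WT libraries, and the groups overlapped. The TMEM14C origin lies 219 bp past the end of PAK1IP1, and TMEM14C encodes a mitochondrial membrane protein of haem synthesis. It had 2.85, 5.53 and 4.90 in CFAP20-KO and 2.16, 2.64 and 3.17 in WT libraries, overlapping in 1 library of each group. The MLPH origin lies outside annotated genes, 10409 bp before the gene of melanophilin, a melanosome transport protein, and had 4.32, 7.16 and 6.84 in CFAP20-KO against 5.78, 1.32 and 16.8 in WT libraries. The wide WT spread there came from replicates 2 and 3, and the MLPH start itself had at most 0.212 in any library. The LOC392452 origin on chromosome X, with no coding gene within 100 kb on its far side, had 2.05, 4.02 and 3.72 in CFAP20-KO and 7.21, 6.85 and 10.5 in WT libraries, with no overlap.

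The downstream origins differed from these. Where their gene was matched, the centre lay more often past its end than inside it, and mean log2 signal fell across the centre. Their nearest gene was protein-coding at 83 of 179 (46.4%), a long non-coding RNA at 40 (22.3%) and not matched to the annotation at 38. The median length of the 141 matched genes was 7906 bp, and the centre lay a median of 3169 bp past the gene's end, inside the gene at 55 and not at 86. Signal was lower after the centre than before it in each library. The median before the centre was 0.082 ± 0.019 in CFAP20-KO and 0.072 ± 0.011 in WT libraries, at the centre 0.025 ± 0.023 in CFAP20-KO and 0.018 ± 0.017 in WT, and after it 0.015 ± 0.013 in CFAP20-KO and 0.027 ± 0.007 in WT (SD, n = 3 each). The mean log2 ratio of after to before was -1.26 ± 0.05 in CFAP20-KO and -1.22 ± 0.08 in WT libraries. Before the centre 42 of 179 origins (23.5%) had a mean signal over 1, at the centre 26 (14.5%) and after it 22 (12.3%). Their start sites were weaker than those of upstream origins: 89 (49.7%) had a mean over 1 in the first 3 kb, and the median was 0.75 ± 0.10 in CFAP20-KO and 0.68 ± 0.19 in WT libraries. Of the 57 downstream origins at 5 to 10 kb, 22 (38.6%) had a mean over 1 before the centre, and of the 122 at 10 to 20 kb, 20 (16.4%).

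Of the 5 downstream origins with the most signal, 3 had their centre inside the nearest gene and the others past its end. GUCD1, a guanylyl cyclase domain gene of 14715 bp, held its origin in an intron 10637 bp past the start. Signal around the centre was 36.0, 16.8 and 15.1 in CFAP20-KO replicates 1, 2 and 3 and 40.5, 11.1 and 23.4 in WT replicates 1, 2 and 3. HBEGF, an EGF receptor ligand, had its origin in its own 3' part, 658 bp before the gene end, with 30.3, 14.7 and 14.7 in CFAP20-KO and 20.2, 7.66 and 18.1 in WT libraries. NUAK2, an AMPK-related kinase, had its origin 938 bp before its end, with 22.3, 6.75 and 6.24 in CFAP20-KO and 17.5, 4.99 and 14.4 in WT libraries. In all 3 the groups overlapped, a replicate 1 library was highest and WT replicate 2 was lowest. The origins of S100A6, a calcium-binding protein, and IMP3, a protein of the U3 ribonucleoprotein that processes ribosomal RNA, lay 6098 and 5084 bp past the end of genes of 1392 and 1238 bp. S100A6 had 11.2, 9.63 and 9.82 around the centre in CFAP20-KO and 20.5, 12.2 and 20.6 in WT libraries, with no overlap. IMP3 had 13.7, 7.61 and 7.14 in CFAP20-KO and 16.2, 4.06 and 12.1 in WT libraries, overlapping.

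At the limits of the distance rule, values are given as a description. SLC19A1, the innermost upstream origin at -5061 bp, had 0.0315 ± 0.0204 around the centre in CFAP20-KO and 0.00762 ± 0.00463 in WT libraries (SD, n = 3 each), and LOC400622, just outside at -5000 bp, had 0.608 ± 0.073 in CFAP20-KO and 0.120 ± 0.047 in WT. At the outer limit INPP4B at -19966 bp had 0.0142 ± 0.0126 in CFAP20-KO and 0.00404 ± 0.00383 in WT, and SECISBP2L at -20055 bp had 0.0406 ± 0.0114 in CFAP20-KO and 0.0719 ± 0.0125 in WT. Downstream, GPR25 at 5020 bp had 0.0406 ± 0.0552 in CFAP20-KO and 0.00612 ± 0.0106 in WT, and COMMD6, outside at 4938 bp, had 0.560 ± 0.068 in CFAP20-KO and 0.631 ± 0.149 in WT. MGAT4EP at 19744 bp had 0.00803 ± 0.0139 in CFAP20-KO and 0.00381 ± 0.0066 in WT, and LINC00578, outside at 20080 bp, had 0.0331 ± 0.0301 in CFAP20-KO and 0.0525 ± 0.0260 in WT.

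**Figure D3:**
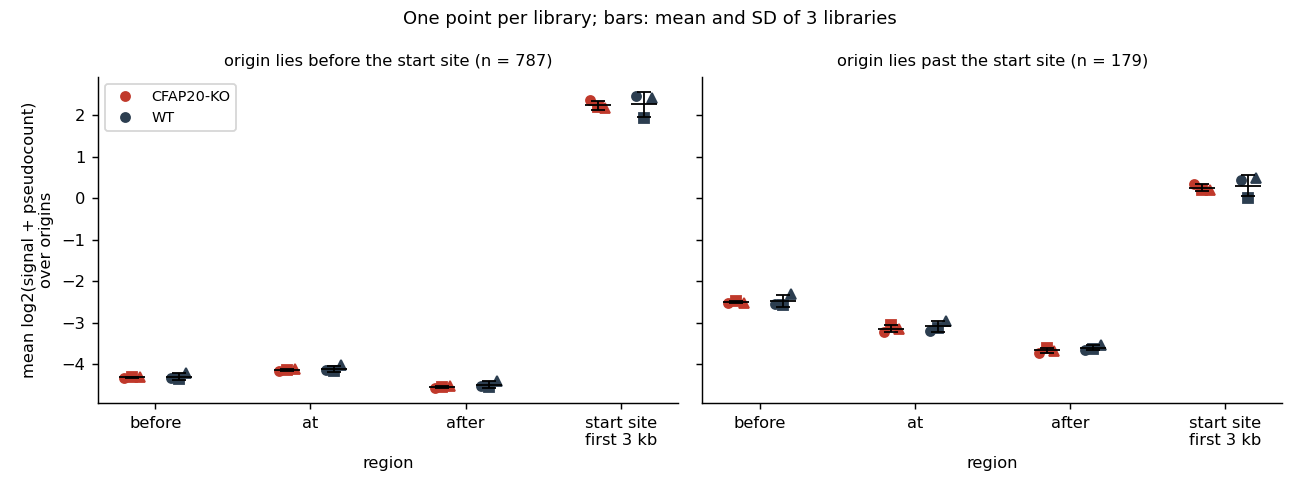
Mean log2(signal + pseudocount) over origins (y) before, at and after the centre and in the first 3 kb of the nearest start site (x), upstream origins on the left and downstream on the right, CFAP20-KO in red left of WT in dark blue. Each symbol is 1 library (circle, square and triangle for replicates 1, 2 and 3), bars give the mean and SD of 3 libraries; the groups overlap in every region shown.

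Averaged over the origins, no difference between CFAP20-KO and WT libraries in signal before, at or after the centre exceeded the spread between libraries. At upstream origins the mean log2 signal before the centre was -4.31 ± 0.02 in CFAP20-KO and -4.30 ± 0.08 in WT libraries (SD, n = 3 each; two-sided exact permutation p = 0.9). At the centre it was -4.14 ± 0.03 in CFAP20-KO and -4.11 ± 0.07 in WT (exact p = 0.7). After the centre it was -4.55 ± 0.03 in CFAP20-KO and -4.48 ± 0.09 in WT (exact p = 0.4). Downstream origins had -2.50 ± 0.03 in CFAP20-KO and -2.47 ± 0.14 in WT before the centre (exact p = 1), -3.14 ± 0.08 in CFAP20-KO and -3.09 ± 0.12 in WT at it (exact p = 0.6), and -3.66 ± 0.06 in CFAP20-KO and -3.60 ± 0.07 in WT after it (exact p = 0.4). The after-to-before ratio at upstream origins was the 1 of 14 values whose groups did not overlap, with CFAP20-KO lower by 0.0546 on the log2 scale. Its exact p of 0.1 is the smallest that 3 against 3 libraries can give, and it was 1 after Benjamini-Hochberg adjustment over the 14 values. Within runs this ratio was -0.08 for CFAP20-KO replicate 1 against its WT library and -0.05 for replicates 2 and 3 against theirs. Within runs the signal after the centre of upstream origins differed by -0.07 and -0.14, and of downstream origins by -0.06 and -0.11.

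Tested origin by origin, few of the 966 origins passed a test between the groups. A limma fit of log2 signal around the centre covered 1325 origins of the list with enough signal, of which 426 were upstream and 131 downstream origins of the distance range, and called 0 at an adjusted p under 0.05 (0% of all tested). At an unadjusted p under 0.05 it had 142 of 1325 (10.7%), with 42 of 426 upstream and 12 of 131 downstream origins (9.86% and 9.16%). The 6 values did not overlap between groups at 230 of 1325 (17.4%), with 72 upstream (16.9%) and 26 downstream origins (19.8%), so the shares in the distance range lay near those of all origins. Before the centre the fit called 1 of 1004 origins (0.0996%), at the centre 4 of 827 (0.484%) and after it 3 of 1016 (0.295%). None of the first belonged to the distance range, and 1 of the second and 1 of the third did. The after-to-before ratio gave 0 calls of 1323 (0%), with 83 of 1323 at an unadjusted p under 0.05 (6.27%), among them 29 of 424 upstream (6.84%) and 5 of 131 downstream origins (3.82%).

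The origin before NANS, the gene of sialic acid synthase, was higher in CFAP20-KO after its centre. Its centre lies outside annotated coding and long non-coding genes, 11731 bp before the NANS start and 29058 bp past the end of ANP32B, a histone chaperone gene on the same strand. After the centre, signal was 5.80, 2.81 and 2.14 in CFAP20-KO replicates 1, 2 and 3 and 0.505, 0.525 and 0.344 in WT replicates 1, 2 and 3. All 3 CFAP20-KO libraries lay above all WT libraries, with a log2 change of 2.81 ± 0.54 (SE; limma adjusted p = 0.0219). Before the centre NANS had at most 0.0491 in any library, and the first 3 kb of NANS itself had 49.7, 29.6 and 24.6 in CFAP20-KO and 54.5, 18.3 and 44.9 in WT libraries, which overlapped. The call was lost when any 1 library other than WT replicate 2 was left out (limma adjusted p of 0.0517 to 0.146), with the mean of CFAP20-KO replicates 2 and 3 taken as 1 library (adjusted p = 0.119), and with regions ending at 3 or 10 kb (adjusted p = 0.0815 and 0.102). In bulk libraries more transcribing cells and more RNA per cell cannot be told apart.

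The origin before TSKU, the gene of a secreted leucine-rich proteoglycan, was lower in CFAP20-KO at its centre. The centre, chr11:76763501, lies 18812 bp before the TSKU start in an intron of a non-coding gene of the opposite strand. Signal at the centre was 0, 0.116 and 0.0982 in CFAP20-KO replicates 1, 2 and 3 and 0.736, 0.493 and 1.05 in WT replicates 1, 2 and 3, so each WT library lay above each CFAP20-KO library. The log2 change was -3.22 ± 0.77 (SE; limma adjusted p = 0.0272), a fitted value that depends on the pseudocount because 1 library was at 0. Before the centre all 6 libraries were at 0. Where strand marking is imperfect, RNA of the gene on the opposite strand could add to these values. The call was lost when any 1 library other than CFAP20-KO replicate 2 was left out (limma adjusted p of 0.0510 to 0.258), with a pseudocount 0.5 times as large (adjusted p = 0.0544), and with the replicate number as a block (adjusted p = 0.187).

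**Figure D4:**
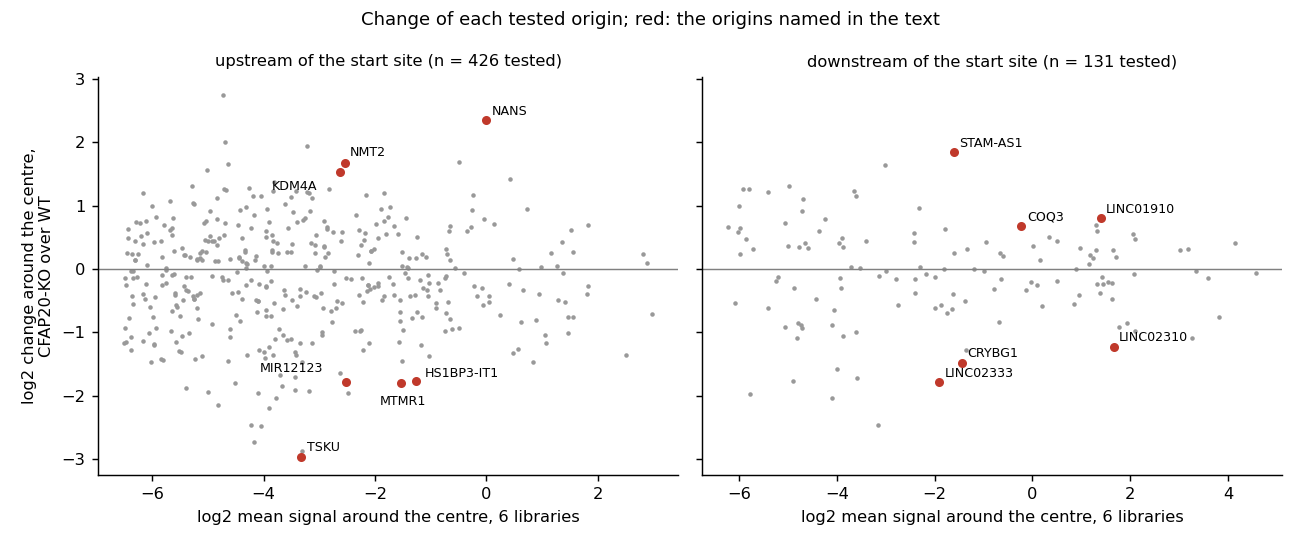
Log2 change around the centre, CFAP20-KO over WT (y), against the log2 of the mean signal of all 6 libraries (x), 1 point per tested origin, upstream origins on the left (n = 426) and downstream on the right (n = 131), with the origins named for their change in red. No point passes an adjusted p of 0.05 in this fit; NANS at 2.35 and TSKU at -2.96 are among the farthest from 0.

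The largest changes around the centre among origins of above-median signal, all of them short of the threshold, were spread over genes of unlike roles. Upstream, higher values were found at NANS (2.35 ± 0.51 on the log2 scale, SE), NMT2, a protein myristoyltransferase gene (1.67 ± 0.51), and KDM4A, a histone demethylase gene (1.53 ± 0.54). Their adjusted p-values in limma were 0.10, 0.28 and 0.32. NMT2 had 0.353, 0.193 and 0.257 in CFAP20-KO against 0.0612, 0.0763 and 0.0876 in WT libraries. Lower values were found at MTMR1, a lipid phosphatase gene (-1.80 ± 0.58), MIR12123 (-1.78 ± 0.50) and HS1BP3-IT1 (-1.76 ± 0.51), with adjusted p-values in limma of 0.29, 0.24 and 0.25. MTMR1 had 0.104, 0.157 and 0.140 in CFAP20-KO against 0.692, 0.210 and 0.781 in WT libraries, where WT replicate 2 lay nearer to the CFAP20-KO libraries than to the other WT libraries.

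Downstream, the largest higher values were at STAM-AS1 (1.85 ± 0.59), LINC01910 (0.80 ± 0.43) and COQ3, a coenzyme Q synthesis gene (0.68 ± 0.44), and the largest lower ones at LINC02333 (-1.78 ± 0.58), CRYBG1 (-1.48 ± 0.55) and LINC02310 (-1.23 ± 0.49). The adjusted p-values in limma were between 0.289 and 0.608. STAM-AS1 had 0.442, 0.620 and 0.444 in CFAP20-KO against 0.0490, 0.213 and 0.198 in WT libraries. LINC02310 had 1.68, 1.86 and 1.68 in CFAP20-KO against 5.72, 1.97 and 6.06 in WT libraries, again with WT replicate 2 close to the CFAP20-KO libraries. At STAM-AS1 and at LINC02310 most of this signal lay before the centre, where STAM-AS1 had 1.08 to 1.45 in CFAP20-KO and 0.126 to 0.467 in WT libraries.

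With the run as a term in the fit, which takes CFAP20-KO and WT libraries only within shared runs, many more origins passed. WT replicate 2 is then fitted exactly and adds nothing to the spread. The spread rests on CFAP20-KO replicate 2 against replicate 3 and on how far the shared runs agree. Those 2 libraries are of the same run and correlated at 0.956 around the centre. All p-values with the run term, here and below, thus rest on little replication. Around the centre 254 of 1325 were then called (19.2%), 36 higher (2.72%) and 218 lower (16.5%). Of the upstream origins 16 were higher and 73 lower, and of the downstream origins 3 were higher and 21 lower, shares that lie near those of all origins tested. The median log2 change of all 1325 origins was -0.32 in this fit, against -0.14 without the run term. When each library was also centred on its own median, a choice made after seeing the data, 266 were called (20.1%), 141 higher (10.6%) and 125 lower (9.43%), and origins of the distance range were then called higher and lower equally often, 59 each. Centring shifts all origins of a library alike, so the balance of higher and lower calls moves with it by construction. Leaving out WT replicate 2 alone raised the calls to 18 of 1325 (1.36%), 2 higher and 16 lower, of which 1 higher and 8 lower were in the range. With the run term and no centring NANS was higher by 2.50 (adjusted p = 3.08e-05), and LOC392452 (-1.60, adjusted p = 6.06e-05), MTMR1 (-2.44, adjusted p = 0.000365), S100A6 (-0.99, adjusted p = 0.00119) and LINC02310 (-1.77, adjusted p = 3.89e-05) were lower in CFAP20-KO.

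The start sites next to these origins were tested in the same way, in a fit added after the centres had been seen. Of 1404 start sites with enough signal 1 was called (0.0712%), and it was not one next to an origin of the range, where 74 had an unadjusted p under 0.05 (128 of all 1404, or 9.12%). Here the deviations of same-numbered libraries correlated at 0.764, 0.466 and 0.109. CFAP20-KO replicate 3 with WT replicate 2 gave 0.528, so the numbers are not established as pairs. With the replicate number as a block 13 of 1404 were called (0.926%), 12 of them lower (0.855%). The 7 of these next to origins of the range were lower, as were nearly all over the whole list. With the run term 257 were called (18.3%), 41 higher (2.92%) and 216 lower (15.4%). Next to upstream origins 20 were higher and 102 lower, and next to downstream origins 1 was higher and 20 lower. With centring as well, 231 were called (16.5%), 76 higher (5.41%) and 155 lower (11%), of which 40 higher and 85 lower were next to origins of the range.

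Genes of replication, transcription and cilia were looked up among the nearest genes, without comparing their share with that of all genes. Around the origin centres none of them was called with or without the run term, but few had enough signal to be tested. The number tested was 5 for matrix and integrins, 3 for replication and 2 for mitosis. It was 1 each for Mediator, elongation, cilium, YAP and TEAD targets and ribosomal proteins, and 0 for every other list. With the run term 19.2% of all tested origins were called, so the lack of calls in so few says little. Of 51 replication genes 3 were nearest to an origin of the range. MCM10, which helps to start DNA synthesis, had 2.81, 2.52 and 2.26 in its first 3 kb in CFAP20-KO against 1.54, 1.19 and 1.61 in WT libraries, with no overlap (log2 change 0.74 ± 0.26, SE; limma adjusted p = 0.39). Start sites within 5 Mb of MCM10 had a median log2 change of 0.82 (n = 9). PRIM2, the large primase subunit, had 1.31, 1.30 and 1.64 in CFAP20-KO and 2.96, 1.28 and 3.31 in WT libraries, and MCM3, a subunit of the replicative helicase, had 24.0, 31.3 and 31.5 in CFAP20-KO and 37.1, 32.5 and 46.5 in WT libraries. MCM3 did not overlap between groups, and PRIM2 did through WT replicate 2. With the run term both were lower in CFAP20-KO, with adjusted p-values in limma of 0.0159 for PRIM2 and 0.0248 for MCM3.

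All 3 members of a list of 22 long and fragile-site genes had lower start-site signal in each CFAP20-KO library than in their same-run WT library. EXOC4, an exocyst subunit, had 5.56, 4.95 and 4.73 in CFAP20-KO against 11.4, 8.33 and 9.37 in WT libraries. IMMP2L, a mitochondrial peptidase subunit, had 5.14, 5.03 and 4.46 in CFAP20-KO against 13.8, 5.39 and 13.1 in WT libraries. PARD3B, a cell polarity protein, had 2.54, 3.82 and 4.43 in CFAP20-KO and 3.94, 4.78 and 6.48 in WT libraries. EXOC4 and IMMP2L did not overlap between the groups and PARD3B did. None passed in the fit without the run term (EXOC4 -0.90 ± 0.24, adjusted p = 0.24), and all 3 passed with it, with a median change of -0.96, in a fit that called 15.4% of all start sites lower and had a median change of -0.17 over all of them. With each library centred as well, the median was -0.82, EXOC4 and IMMP2L passed (limma adjusted p = 0.0168 and 0.0049) and PARD3B did not (-0.47 ± 0.17, adjusted p = 0.101). EXOC4 and IMMP2L both lie on chromosome 7, where start sites within 5 Mb of them had median log2 changes of -1.20 (n = 8) and -0.98 (n = 6). The part of these neighbours' level in the result was not tested. At the origins themselves signal was at most 0.00762 in any library for all 3 genes.

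In the Hedgehog, cilium, R-loop, Mediator and elongation lists, start sites had several-fold more signal than the origins next to them. DISP1, which releases Hedgehog ligands, had 6.95, 11.0 and 9.96 in its first 3 kb in CFAP20-KO and 4.96, 6.57 and 6.45 in WT libraries, with no overlap, and 0 around its origin centre in all 6. It was higher with the run term (0.59, limma adjusted p = 0.0372). GPR161, a receptor that restrains Hedgehog signalling, had 2.68 to 5.51 at its start in CFAP20-KO and 1.83 to 5.52 in WT libraries. The cilium genes DYNC2H1, a transport motor, and BBS10, a chaperonin-like protein, had 3.75 to 6.20 and 13.5 to 25.6 at their starts in CFAP20-KO and 4.24 to 5.26 and 20.5 to 28.5 in WT libraries. RNASEH2B, a subunit of the nuclease that removes RNA from RNA-DNA hybrids, had 9.41 to 13.0 in CFAP20-KO and 7.54 to 13.6 in WT libraries at its start, and at most 0.00735 around its origin. MED27 of Mediator had 8.76 to 9.62 in CFAP20-KO and 10.6 to 15.3 in WT libraries, with no overlap, and CDC73 of the PAF1 complex had 7.92 to 8.53 in CFAP20-KO and 6.50 to 7.76 in WT, also with no overlap. Neither passed with or without the run term. Around their origins MED27 had 0.0424 to 0.0882 in CFAP20-KO and 0.0180 to 0.11 in WT libraries, and CDC73 had 0.241 to 0.379 in CFAP20-KO and 0.115 to 0.514 in WT libraries, both overlapping.

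Of the 53 matrix and integrin genes 6 were nearest to an origin of the range, and 4 of their start sites had enough signal. MMP2, a gelatinase, had 65.0, 37.3 and 39.3 in its first 3 kb in CFAP20-KO against 24.5, 10.1 and 21.0 in WT libraries, with no overlap (1.39 ± 0.42, SE; limma adjusted p = 0.28, and 0.00886 with the run term). With the run term ITGB5, an integrin subunit, was lower (-0.51, adjusted p = 0.0473 in limma), and of the 4 start sites 1 was higher and 2 were lower. Around its origin, inside an MMP2 intron by the annotation and 5829 bp before the listed start, signal at MMP2 was 2.87, 3.22 and 3.28 in CFAP20-KO and 2.58, 0.726 and 4.50 in WT libraries. CCN2, a secreted matrix protein induced by YAP, was the most active named start with 96.9 to 220 in CFAP20-KO and 149 to 175 in WT libraries, while its origin 14371 bp past the start had at most 0.0147. RPL6, a ribosomal protein gene of 4096 bp, had 3.50 to 4.62 around its origin in CFAP20-KO and 2.46 to 5.80 in WT libraries, 5188 bp past the gene end. The remaining lists held 2 mitosis genes (BUB1B and KIF14), SAMD9L of the interferon response and, among cell markers, RLBP1 and SYT1. Of these RLBP1 alone was called lower at its start with the run term (-1.30, limma adjusted p = 0.0176). Its start had 0.0787, 0 and 0 in CFAP20-KO and 0.420, 0.357 and 0.311 in WT libraries. RLBP1 reached the filter on low signal only through the WT libraries, and each CFAP20-KO value lay below the pseudocount of 0.192. No conclusion is drawn from this call. No gene of the DNA damage response, immediate early or culture marker lists was nearest to an origin of the range.

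**Figure D5:**
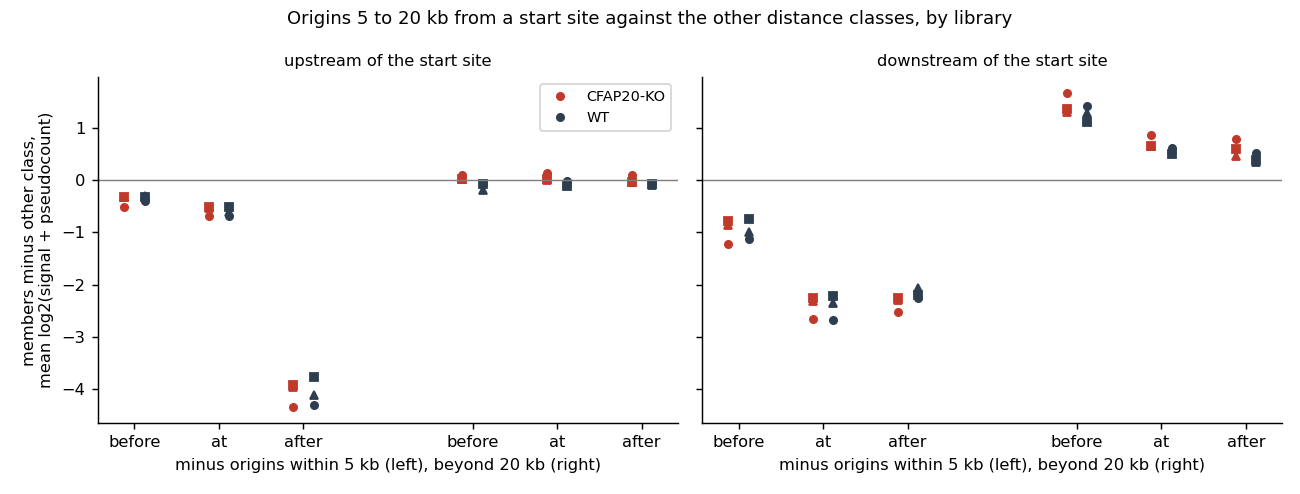
Difference of the mean log2(signal + pseudocount) between origins 5 to 20 kb from a start site and origins of another distance class with the same sign (y), before, at and after the centre (x), each symbol 1 library, CFAP20-KO in red left of WT in dark blue. Against origins beyond 20 kb the upstream points lie between -0.18 and 0.14, with the CFAP20-KO points above the WT points in each region. The downstream points lie above 0 in all 6 libraries, with the CFAP20-KO points above the WT points at the centre only.

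Set against origins beyond 20 kb, the upstream origins of 5 to 20 kb had levels that differed by at most 0.18 on the log2 scale in any library, and the downstream origins were higher. The mean difference over 6 libraries at upstream origins was -0.03 before the centre, 0.003 at it and -0.03 after it (two-sided exact sign-flip p = 0.5, 0.906 and 0.3125). This mean hides a split by group. Before the centre the difference was 0.098, 0.021 and 0.017 in CFAP20-KO replicates 1, 2 and 3 and -0.077, -0.079 and -0.179 in WT replicates 1, 2 and 3. At the centre it was 0.144, 0.018 and -0.004 in CFAP20-KO and -0.012, -0.104 and -0.026 in WT libraries, and after it 0.108, -0.042 and -0.031 in CFAP20-KO and -0.070, -0.078 and -0.094 in WT libraries. The groups did not overlap in any of the 3 regions. CFAP20-KO exceeded WT by 0.16, 0.10 and 0.09, each with a two-sided exact permutation p of 0.1, the smallest that 3 against 3 libraries allow (0.24 after adjustment over 12 comparisons).

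Downstream origins were higher than those beyond 20 kb in 6 of 6 libraries, by 1.36 before the centre (1.12 to 1.68), 0.65 at it (0.51 to 0.87) and 0.52 after it (0.36 to 0.78). Each of these had an exact sign-flip p of 0.031, the smallest that 6 libraries can give (0.0417 after adjustment over 12 comparisons). This p-value measures agreement among libraries over the same origins, not the spread among origins. The distance rule itself puts the downstream origins of the range nearer to their start site. Their centres lay a median of 3169 bp past the end of the matched gene, against 21828.5 bp for those beyond 20 kb. The part of this in the differences was not tested. At the centre the groups split here too, at 0.875, 0.665 and 0.657 in CFAP20-KO and 0.615, 0.509 and 0.604 in WT libraries. CFAP20-KO exceeded WT by 0.16 (exact permutation p = 0.1, 0.24 after adjustment). Before and after the centre the groups overlapped. Origins within 5 kb are a poor match for these regions, because the distance rule puts their start site inside or next to them. Of the 311 upstream ones 47 have it inside the region at the centre and 235 inside the region after it, and of the 80 downstream ones 59 have it inside the region before the centre and 18 inside that at the centre. Differences from these nearer origins are therefore given as a description. Upstream origins of the range were lower than them by 0.36 before the centre, where no start site of the nearer origins lies, by 0.59 at it and by 4.07 after it. Among origins with at least the pseudocount, a filter on the compared signal itself, upstream origins of the range were higher than the nearer ones by 0.48 before the centre and differed by -0.01 at it. Downstream origins of the range were lower than the nearer ones by 0.95 before, 2.42 at and 2.27 after the centre. After the centre the mean difference was -2.36 in CFAP20-KO and -2.17 in WT libraries, without overlap (exact permutation p = 0.1, 0.24 after adjustment). For scale, 2735 origin windows outside the list had a median signal at the centre of 0.025 ± 0.023 in CFAP20-KO and 0.030 ± 0.027 in WT libraries (SD, n = 3 each). Before the centre their median was 0.050 ± 0.008 in CFAP20-KO and 0.053 ± 0.006 in WT libraries. After it the median was 0.044 ± 0.003 in CFAP20-KO and 0.048 ± 0.001 in WT libraries.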

How the data were processed

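BrU-seq libraries of 3 CFAP20-KO and 3 WT samples were used. The authors' deposited tables hold signal (coverage), scaled per library, in bins of 200 bp around origin centres for the strand of the nearest gene. Reads were paired and 151 bp long, per the labels' protocols. The submitters' processing notes list HOMER 4.8.2, STAR 2.7.7a, SAMtools 1.11, Trim Galore 0.6.5, FastQC 0.11.9, R 4.0.5 and the build hg38. Neither their order and parameters nor the reference of the scaling is stated. Of the deposited splice table, whose values are fractions per intron, only the column names were used, for the run. Values under 1e-06 in size were set to 0.

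Genes came from GENCODE 44 (902 of 966 nearest genes matched within 1000 bp of the start site). As pseudocount served the 10th percentile of values above 0 over the origins of the list (around 0.0110, before and after 0.0196, at 0.0291, start 0.192), and origins whose mean reached it were tested with limma 3.58.1 in R 4.3.3 (trend, robust, statmod 1.5.0) and Benjamini-Hochberg adjustment at 0.05 over all tested origins of the list. The fit was checked on simulated data. Values per library were compared by exact permutation, and classes by an exact sign-flip over 6 libraries. Depth limits low values: CFAP20-KO replicate 1 has the coarsest step.

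The members, gene lists and tests were chosen with earlier results of these data known. Origins named are, per sign, the 5 highest around the centre; the 3 largest rises and 3 largest falls without overlap and above the median signal of tested origins; up to 3 per gene list by signal; those nearest the distance limits; and, chosen after their values were seen, the origins that passed at or after the centre. Alternatives were the pseudocount, centring, each library left out, the replicate number as block, the run, averaging of CFAP20-KO replicates 2 and 3, region width and the filter on low signal. Deviations from the group means in same-numbered libraries correlated at 0.278, 0.0436 and 0.0914 around the centre, so the numbers were not taken as pairs there. At start sites they correlated at 0.764, 0.466 and 0.109. There CFAP20-KO replicate 3 with WT replicate 2 gave 0.528, and CFAP20-KO replicate 2 with WT replicate 3 gave 0.157. The block was an alternative only, at start sites too. These correlations come from the data, not the labels. The sequences at some other origin centres are not reported here.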

Additional observations from a re-analysis of the deposited data

How the results depend on the processing

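Counts of called origins in the range depended on how libraries were set against each other. Around the centre 0 were called as planned, 3 with the replicate number as a block, 113 with the run term, 118 with the run term and each library centred on its median, and 0 to 9 when 1 library was left out, the 9 without WT replicate 2. Before the centre 0 were called, 1 with regions ending at 3 kb, 1 with no filter, 2 with the block, 65 with the run term, 53 with run term and centring, and 0 to 2 with a library left out. At the centre 1 was called, 0 with a pseudocount 0.5 times as large, 0 with the block, 36 with the run term, 36 with run term and centring, and 0 to 4 with a library left out. After the centre 1 was called, 0 with CFAP20-KO replicates 2 and 3 averaged, 0 with regions ending at 3 kb or at 10 kb, 2 with no filter, 2 with the block, 38 with the run term, 35 with run term and centring, and 0 to 10 with a library left out. At start sites 0 were called, 7 with the block, 143 with the run term, 125 with run term and centring, and 0 to 3 with a library left out. The after-to-before ratio kept 0 calls under each of these alternatives. For the 13 origins named by change, no alternative reversed the direction. These origins were chosen for groups that did not overlap or for passing a test. Where groups do not overlap, leaving out or averaging libraries cannot reverse a mean difference, so no support is drawn from this.

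Mean differences between CFAP20-KO and WT libraries (log2, none past the threshold) changed sign under some alternatives. With each library centred on its median they were 0.0443 before, 0.51 at and 0.149 after the centre of upstream origins, and 0.0299, 0.487 and 0.149 at downstream origins. Taking the median over origins gave 0 at and after the centre and for the after-to-before ratio upstream, 0.0178 for upstream start sites, and, downstream, 0.143 before, 0.18 at, 0.0937 for the ratio and 0.124 for start sites. Averaging CFAP20-KO replicates 2 and 3 gave 0.000732 before the centre, 0.0128 at start sites and -0.00118 for the centre-to-start ratio upstream. Regions ending at 3 kb gave 0.00874 before the centre upstream. Only origins with signal gave 0.00733 before the centre downstream and -0.0219 for the centre-to-start ratio upstream. That ratio downstream was 0.0131 with a pseudocount 4 times as large and 0.062 with the run term, and the centre-to-flank ratio downstream was 0.000762 with the run term. With a library left out, the ranges were, upstream, -0.0433 to 0.0302 before, -0.0529 to 0.0126 at the centre, -0.191 to 0.0782 at start sites and -0.136 to 0.178 for the centre-to-start ratio. Downstream they were -0.077 to 0.0489 before, -0.100 to 0.0169 at the centre, -0.119 to 0.0176 for centre to flank, -0.209 to 0.0309 at start sites and -0.141 to 0.104 for centre to start.

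With 5 libraries the sign-flip test cannot go below 0.0625, so differences from other distance classes lost the threshold by construction when CFAP20-KO replicates 2 and 3 were averaged or a library was left out. Against origins within 5 kb averaging gave -0.369, -0.602 and -4.09 upstream and -0.985, -2.44 and -2.26 downstream (before, at, after). Ranges with a library left out were -0.374 to -0.332, -0.605 to -0.572 and -4.13 to -4.02 upstream and -0.995 to -0.898, -2.46 to -2.36 and -2.31 to -2.21 downstream. Against origins beyond 20 kb averaging gave 1.36, 0.651 and 0.519 downstream, with ranges of 1.3 to 1.41, 0.61 to 0.683 and 0.47 to 0.555. Upstream at the centre the range was -0.0256 to 0.024. Medians over origins gave -0.705 and -0.406 upstream before and at the centre within 5 kb, 0.31 and 0.305 downstream at and after it beyond 20 kb, and 0 upstream at it beyond 20 kb. Only origins with signal gave 0.477 before and -0.0143 at the centre upstream within 5 kb, and 0.0559 before and 0.0495 after it beyond 20 kb. Regions ending at 10 kb gave 0.0728 before and 2.01 after the centre upstream beyond 20 kb, where start sites of the range fall inside the region. The cause of the other changes was not tested. No origin has another centre within 20 kb, so that alternative equals the planned value.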
